A study of Mus musculus with 10 samples.

Results

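Residual histone marks were followed in the mature mouse retina at 9 retinal progenitor and Notch genes, which build the embryonic retina or carry its Notch signal: Notch1, Dll1, Hes1, Hes5, Rax, Six3, Six6, Atoh7 and Ccnd1. Every peak of the deposited table that carried one of these 9 symbols was taken, whatever its level. They held 60 of the 108253 peaks. Of these, 10 were annotated as promoter peaks, out of 17144, and 50 lay elsewhere, out of 91109. Explanted retinas of wild-type C57BL/6J mice at postnatal day 28 had been cultured for 48 h in medium with 5 or 25 mM glucose, and were dissociated with papain. CUT&Tag, in which an antibody directs a cutting enzyme to a modified histone, was run on 500000 cells per assay either for lactylation of histone H3 at lysine 18 (H3K18La; 3 libraries at 5 mM and 3 at 25 mM) or for acetylation at lysine 27 (H3K27Ac; 2 libraries at each level). All groups shared strain, age and culture time, and by their labels differed in glucose and antibody only. An explant is a retina cut off from its blood supply and pigment epithelium, and the study's methods call the replicates biological, while no source used here says whether they came from separate animals or cultures, so part of the spread behind the p-values may be technical. The marks were read over whole retina, so that fewer cells of a type and less mark per cell cannot be told apart.

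In the embryo, a Notch ligand such as Dll1 on one cell activates the receptor Notch1 on its neighbour. The cut intracellular part of the receptor joins the DNA-binding protein RBPJ and switches on Hes1 and Hes5, repressors that keep the neighbour a dividing progenitor by holding down neurogenic factors such as Atoh7. Rax, Six3 and Six6 are homeobox factors of the eye field, and Ccnd1 is the D-type cyclin that drives retinal progenitors into S phase. In the mature retina, division has ended, and Müller glia are among the cells known to keep part of this programme.

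The sequences just before the transcription start were examined first, since most of these starts lay inside a peak. RefSeq promoters on GRCm38.p6 were matched by symbol for 6 of the 9 genes, in 7 windows of 250 bases, and none was matched for Hes1, Rax or Ccnd1. The 4 windows that hold no untranslated exon in GENCODE M21 are printed 5′ to 3′ on the strand of the gene. Hes5 and Dll1 are shown because H3K18La rose over the peak at their start, Notch1 because its promoter sum rose while the peak at this start did not pass the test, and Six3 because its promoter was not called. Capitals mark TGGGAA, the core bound by RBPJ, and GGGCGG, the GC box, on either strand; the letters of the RBPJ core and the GC box do not overlap in any window.
Notch1, chr2:26503823-26504072, minus strand: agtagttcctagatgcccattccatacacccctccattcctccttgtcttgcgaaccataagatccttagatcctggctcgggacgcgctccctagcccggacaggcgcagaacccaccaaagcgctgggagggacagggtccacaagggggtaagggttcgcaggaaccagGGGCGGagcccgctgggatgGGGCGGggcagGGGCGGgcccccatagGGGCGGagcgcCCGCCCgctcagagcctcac
Hes5, chr4:154960673-154960922, plus strand: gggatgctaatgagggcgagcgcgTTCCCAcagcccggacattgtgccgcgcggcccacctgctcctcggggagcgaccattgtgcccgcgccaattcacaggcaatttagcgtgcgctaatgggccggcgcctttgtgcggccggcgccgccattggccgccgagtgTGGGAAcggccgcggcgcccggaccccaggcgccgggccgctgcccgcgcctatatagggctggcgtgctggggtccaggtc
Dll1, upstream start, chr17:15376933-15377182, minus strand: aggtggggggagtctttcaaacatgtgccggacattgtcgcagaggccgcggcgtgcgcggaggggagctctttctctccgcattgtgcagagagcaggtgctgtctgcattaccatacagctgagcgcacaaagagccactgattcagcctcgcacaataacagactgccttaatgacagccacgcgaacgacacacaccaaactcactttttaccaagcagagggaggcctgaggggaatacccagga
Six3, chr17:85620584-85620833, plus strand: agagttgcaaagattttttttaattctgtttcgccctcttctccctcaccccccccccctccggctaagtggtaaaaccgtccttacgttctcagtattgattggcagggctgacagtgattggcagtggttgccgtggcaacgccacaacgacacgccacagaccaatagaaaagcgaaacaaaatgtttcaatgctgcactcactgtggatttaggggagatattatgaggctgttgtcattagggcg

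The Hes5 window was the most CpG-rich of the 7, with 32 CpG dinucleotides and 71.6% GC, against medians of 6 and 52.4% over the 32851 promoters of the RefSeq table. Its 2 RBPJ cores began 226 and 82 bases before the RefSeq start, and the Atoh7 window held 1, at 114 bases. The Atoh7 window holds 134 bases of untranslated exon in GENCODE M21. The GENCODE start used below for the Atoh7 peak lies inside this window, and the core lies after that start. An RBPJ core was present in 21.6% of all promoters. The Notch1 window held no RBPJ core but 5 GC boxes within 78 bases of the start, and the Atoh7 and Six6 windows held 1 GC box each, where 32.7% of all promoters held one. CACNAG, the N-box bound by Hes repressors, occurred once in the Notch1 and once in the Six6 window and in 36.7% of all promoters. CACGTG, an E-box, occurred in none of the 7 windows and in 6.02% of all promoters. The Six3 window had 10 CpG and 48.8% GC. These matches describe letters in the windows and not binding.

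A coding start of 7 of the 9 genes lay inside a peak, as did that of 51.1% of 21857 protein-coding genes in GENCODE M21. The exceptions were Hes1 and Ccnd1. No peak of the table covered the coding start of Hes1. Its promoter peak (chr16:30063974-30064544) ended 0.796 kb upstream and was named for the start of a non-coding transcript. Ccnd1 had 14 peaks and none at a promoter. Its nearest peaks to the start were one in exon 2 of 5, 1.75 kb downstream, and one 2.31 kb upstream.

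Notch1 had the most peaks, 17, spread over its gene body and flanks. Only 1 of its 3 promoter peaks, chr2:26503222-26504051, covered the coding start. The others, chr2:26464798-26468005 and chr2:26470354-26470936, lay 35.8 and 32.9 kb inside the gene, at starts of non-coding transcripts. The promoter peaks of the 9 genes were richer in CpG than the promoter peaks of the table, with medians of 6.31 and 4.90 per 100 bases. The 2 internal Notch1 peaks, at 2.43 and 2.06 per 100 bases, stood below both medians. Of the 60 peaks, 31 were distal intergenic, 8 intronic, 7 exonic and 4 in a 3′ untranslated region.

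Levels are given in RPKM, the reads per kilobase of peak and per 1e+06 reads of the library's total, so that they can be compared between genes. Totals ran from 1358008 to 7424470 reads. Single peaks were shallow, with a median of 2 reads per library in H3K18La at 5 mM, 6 at 25 mM, and 9 and 25 in H3K27Ac. The share of a library's reads that fell in any peak was higher at 25 mM in every library, going from 11.9% ± 0.0966 to 32.6% ± 2.08 (SD, n = 3) in H3K18La and from 26.3% ± 7.35 to 63.0% ± 9.19 (SD, n = 2) in H3K27Ac. The 60 peaks moved with this share. Their part of the total went from 0.00818% ± 0.000394 to 0.0238% ± 0.00472 in H3K18La, while their part of the reads in peaks was 0.0687% ± 0.00372 at 5 mM and 0.0727% ± 0.00959 at 25 mM. In H3K27Ac their part of the reads in peaks was 0.0647% ± 0.0016 and 0.0697% ± 0.00441. Increases in RPKM below are thus increases against the library total, and they are set beside the median of all genes.

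Of the promoters, Rax carried both marks near the top of the table. The mean of its promoter peak stood at percentile 96.9 at 5 mM and 96.5 at 25 mM among 14562 genes for H3K18La, and at 95.7 and 98.2 for H3K27Ac. Over its promoter peaks Notch1 stood high in H3K18La only. The sum was at percentiles 89.1 and 95.0 for H3K18La, against 48.0 and 50.4 for H3K27Ac. The peak over its coding start gave lower ranks among promoter peaks, 78.0 and 73.9 for H3K18La and 33.3 and 41.3 for H3K27Ac.

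**Figure D1:**
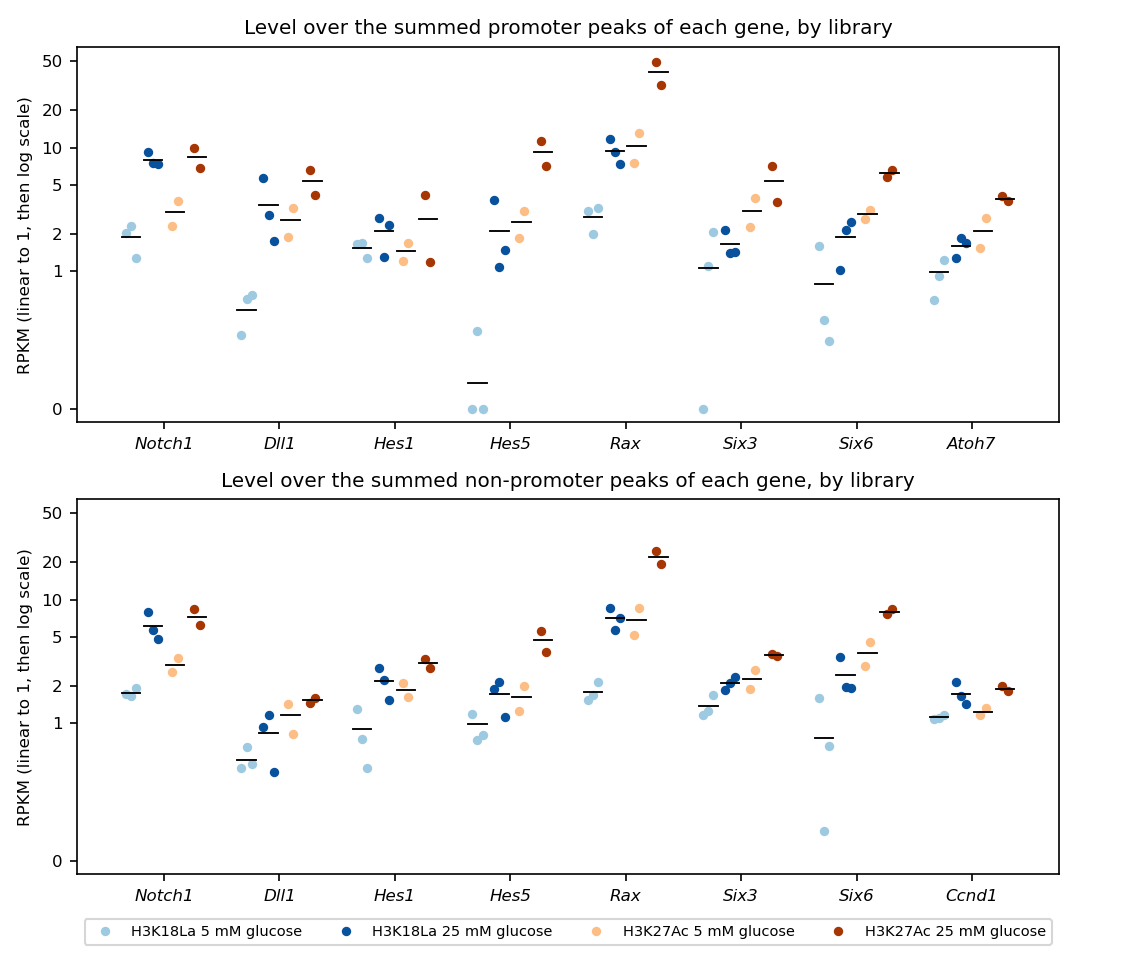
RPKM over the summed promoter peaks (upper panel) and non-promoter peaks (lower panel) of each gene, 1 point per library and a bar at the group mean, on an axis that is linear to 1 and logarithmic above. Rax has the highest mean in each group of the upper panel, from 2.77 in H3K18La at 5 mM to 40.5 in H3K27Ac at 25 mM, and 2 of the 3 Hes5 libraries of H3K18La at 5 mM lie at 0.

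The order of the other promoters in H3K18La at 5 mM, from Hes1 at percentile 81.5 to Hes5 at 3.79, rested on very few reads. At 25 mM, where reads were more, Dll1 stood at percentile 78.1 for H3K18La, Hes1 at 55.8, Hes5 at 55.7, Six6 at 49.3, Six3 at 42.4 and Atoh7 at 40.1. From Hes1 down to Atoh7 the group means ran only from 2.11 to 1.60 RPKM and the libraries of neighbouring genes overlapped. For H3K27Ac at 25 mM the order was Rax, Hes5 (53.3), Notch1, Six6 (43.2), Dll1 (40.2), Six3 (40.1), Atoh7 (34.1) and Hes1. The promoter peak of Hes1, last in this order, is not at the coding start. Over the 8 genes with a promoter peak the median percentile was 58.0 and 55.7 for H3K18La and 44.3 and 41.7 for H3K27Ac, at 5 and 25 mM.

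**Figure D2:**
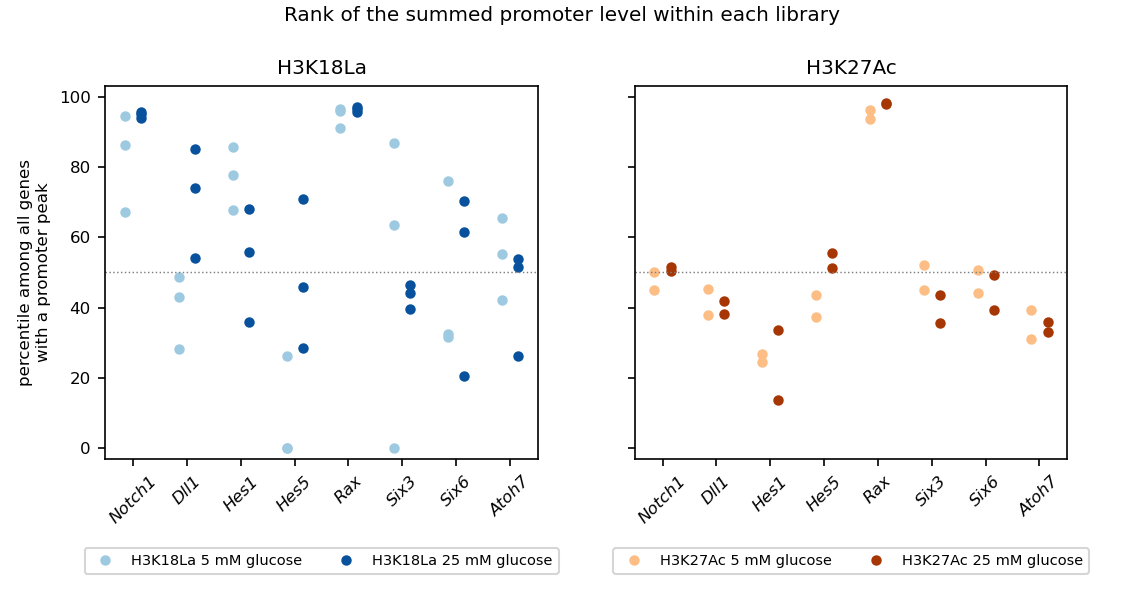
Percentile of each gene's summed promoter RPKM among all 14562 genes with a promoter peak, 1 point per library, for H3K18La (left) and H3K27Ac (right). Rax lies above the 90th percentile in every library of both marks, and Notch1 reaches 95.5 in H3K18La but no more than 51.5 in H3K27Ac.

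Away from promoters Rax again stood highest, followed by Notch1 in H3K18La at 25 mM and by Six6 in H3K27Ac. The mean over the 5 non-promoter peaks of Rax was at percentiles 89.9 and 95.0 for H3K18La and 96.3 and 97.8 for H3K27Ac, among 19849 genes. Notch1 was at 89.5 and 92.8 for H3K18La and at 82.6 and 85.4 for H3K27Ac. Six6 stood at 87.4 and 86.9 for H3K27Ac, from the peak over its exon 2, while its promoter was near the middle. Dll1 was lowest, at 36.2 for H3K18La and 49.1 for H3K27Ac at 25 mM.

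The main comparison asked whether glucose changed either mark at these genes. It was made with limma on log2(RPKM + 0.5), with 1 fit of all 10 libraries and Benjamini-Hochberg adjustment over the whole table, and a threshold of 0.05. Fold changes on this scale understate those of low peaks. In H3K18La 18 of the 60 peaks passed, all of them higher at 25 mM, against 25.4% of all peaks. In H3K27Ac no peak passed, of these genes or of the table (0%), where 14 of the 60 and 23243 in all had an unadjusted p under 0.05, and voom on the recovered reads called 19 and 23148. The smallest adjusted p of the 60 in H3K27Ac was 0.0553. Every 25 mM library lay above every 5 mM library at 28 of the 60 peaks for H3K18La (36.6% of all peaks) and at 45 for H3K27Ac (53.0% of all peaks). The median log2 fold change of the 60 peaks was 1.06 in H3K18La and 0.80 in H3K27Ac, beside 0.76 and 0.58 over the table. The calls fell on few genes: Notch1 had 10, Rax 5, and Hes5, Dll1 and Six3 1 each.

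Summed over promoters, H3K18La rose at 4 of 8 genes (Notch1, Hes5, Rax and Dll1), where 33.9% of all genes passed. H3K27Ac rose at 3 of 8 (Notch1, Hes5 and Rax), where 36.4% of all genes passed. Over non-promoter peaks H3K18La rose at 4 of 8 genes (Notch1, Rax, Hes1 and Six6), where 35.3% passed, and H3K27Ac at 3 of 8 (Notch1, Rax and Hes5), where 16.1% passed. None of these genes fell. The median of all genes was itself shifted, by 0.87 and 1.15 over promoters and 0.61 and 0.46 over other peaks, for H3K18La and H3K27Ac. Of the 8 promoter sums, 4 lay above that median for H3K18La and 3 for H3K27Ac, and of the 8 non-promoter sums 4 and 7. When libraries were scaled to their reads in peaks instead, the median moved to -0.07 and 0.03 over promoters, and none of these genes was called. In that scaling 0 of all 14562 promoter sums passed in either mark. Of all 19849 non-promoter sums, 334 passed in H3K18La and 0 in H3K27Ac.

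**Figure D3:**
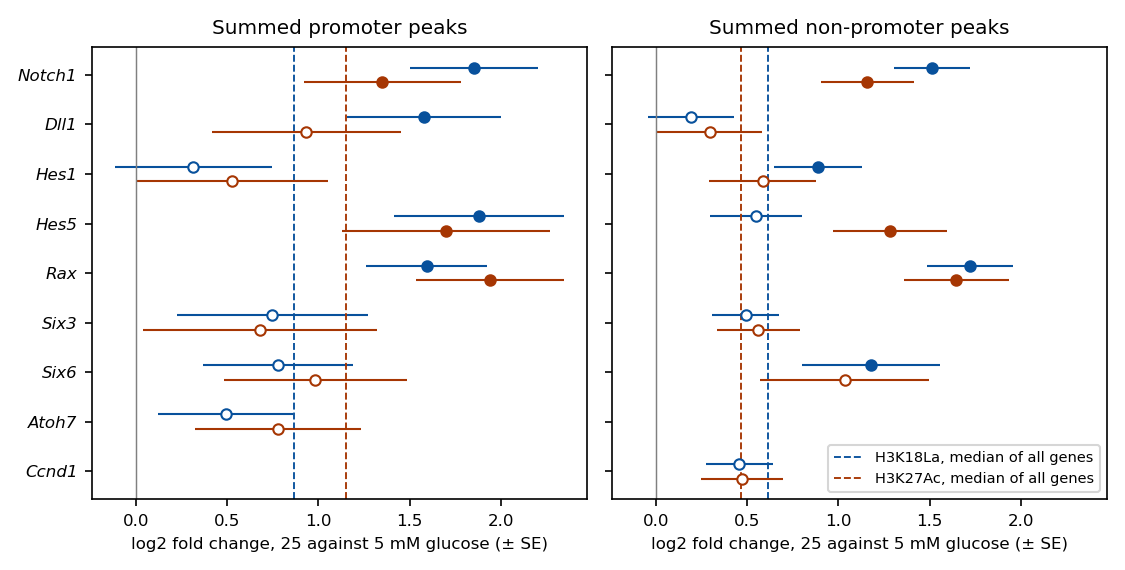
Log2 fold change of 25 against 5 mM glucose with its standard error, over promoter (left) and non-promoter peaks (right), for H3K18La (blue) and H3K27Ac (red). Filled points passed an adjusted p of 0.05, and the dashed lines mark the median of all genes. Notch1 and Rax lie right of both medians in both panels, from 1.16 to 1.94.

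Notch1, the receptor, rose in H3K18La over its promoter sum from 2.05, 2.34 and 1.28 RPKM at 5 mM to 9.25, 7.45 and 7.30 at 25 mM, and the groups did not overlap. The log2 fold change was 1.85 ± 0.35 (SE; limma adjusted p = 0.0018). H3K27Ac went from 2.30 and 3.73 RPKM to 9.99 and 6.85 (log2 fold change 1.35 ± 0.43; limma adjusted p = 0.0288). Most of these reads came from the long internal peak, which held 68, 119 and 83 H3K18La reads at 25 mM where the coding start held 7, 7 and 8. The internal peak rose by 2.01 ± 0.32 in H3K18La (limma adjusted p = 0.0017). Over the coding start the difference in H3K18La was 0.89 ± 0.36 and did not pass (limma adjusted p = 0.0931), though each 25 mM library exceeded each 5 mM library.

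The highest H3K18La mean at Notch1 at 25 mM, 14.5 RPKM, was not at a promoter peak. It was at a peak 2.53 kb downstream of the coding start (chr2:26499736-26501295, in an exon of a short transcript), chosen here after its values were seen. H3K18La there went from 3.95, 2.10 and 2.36 to 20.6, 13.7 and 9.29 RPKM, a log2 fold change of 2.16 ± 0.36 (limma adjusted p = 0.0018). Its H3K27Ac went from 4.15 and 3.72 to 20.7 and 12.2 RPKM (log2 fold change 1.89 ± 0.44; limma adjusted p = 0.0553). At the far end of the gene the peak in the 3′ untranslated region (chr2:26458226-26458896) had the highest mean over all 10 libraries of any Notch1 non-promoter peak, 9.60 RPKM. Its H3K27Ac was 7.24 and 13.2 RPKM at 5 mM and 20.9 and 21.3 at 25 mM. H3K18La there went from 3.53, 2.59 and 3.29 to 5.31, 6.60 and 12.1 RPKM (log2 fold change 1.15 ± 0.34; limma adjusted p = 0.0281). That last call was lost without H3K18La 5 mM replicate 2, 25 mM replicate 2 or 25 mM replicate 3, with adjusted p of up to 0.114 over the leave-outs. Over all 14 non-promoter peaks Notch1 rose by 1.51 ± 0.21 in H3K18La and 1.16 ± 0.25 in H3K27Ac (limma adjusted p = 7.6e-04 and 0.0193).

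**Figure D4:**
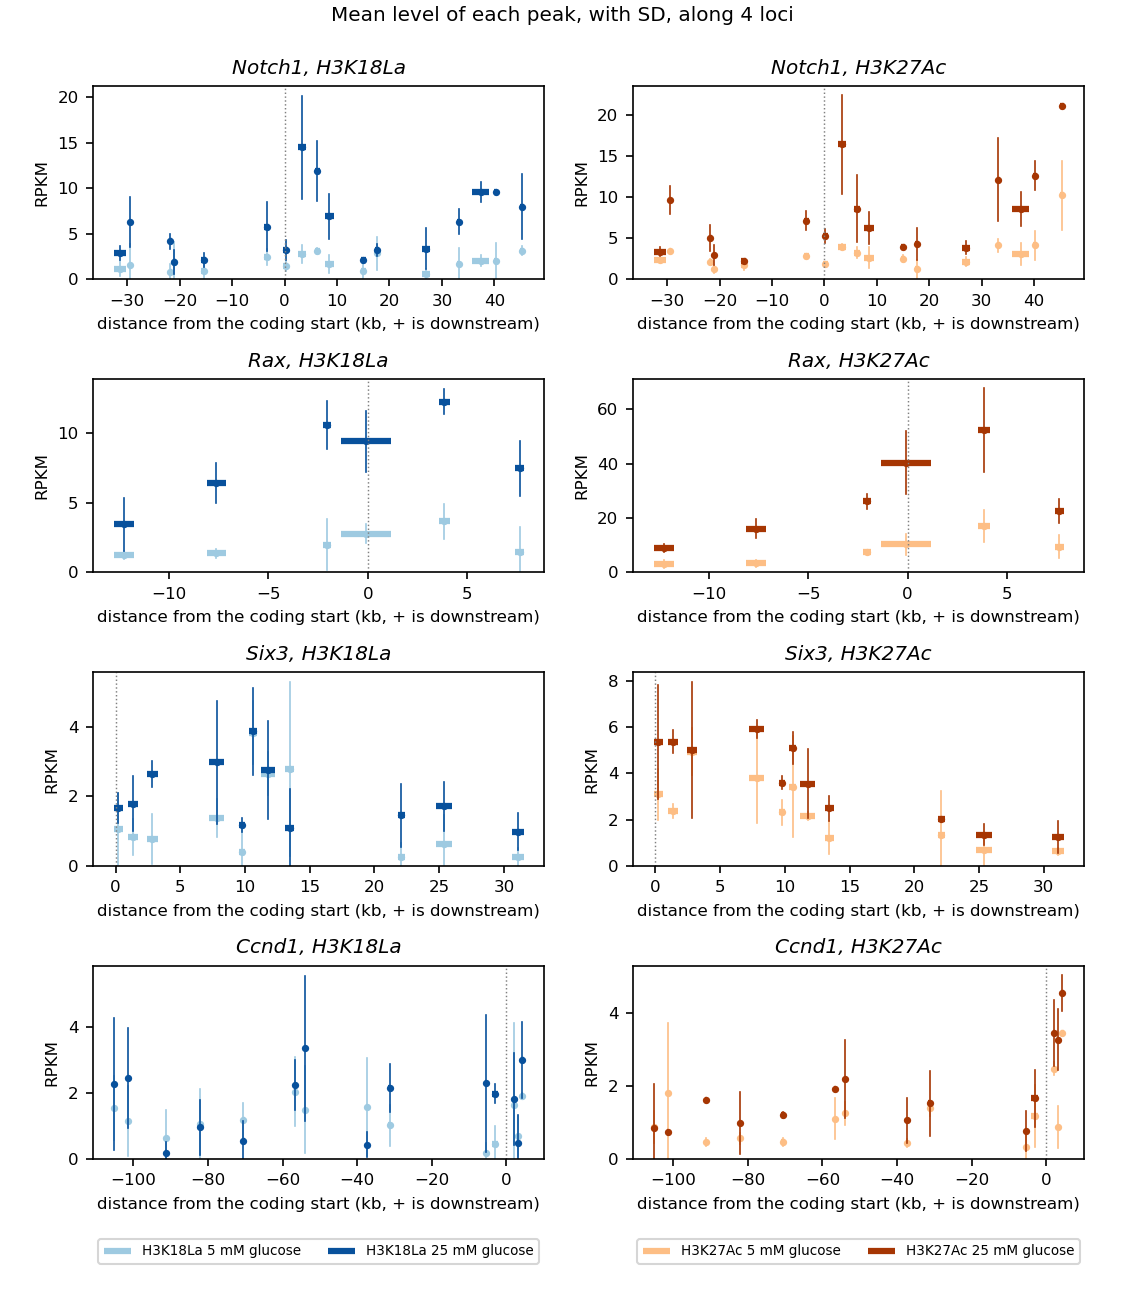
Mean RPKM of each peak in 4 genes, by distance in kb from the coding start (dotted line; positive is downstream), with horizontal bars to the width of the peak and vertical bars of 1 SD cut at 0. At Notch1 the H3K18La peaks 2.53 and 5.73 kb downstream reach 14.5 and 11.9 at 25 mM while the peak over the start reaches 3.21. At Rax all 6 peaks are higher at 25 mM in both marks. At Ccnd1 the H3K18La groups intermingle, while in H3K27Ac 2 of the 14 peaks have a negative fold change.

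Dll1, the ligand, rose in H3K18La at the promoter peak that spans both of its RefSeq starts (chr17:15374420-15377090). The values were 0.532, 0.795 and 0.827 RPKM at 5 mM and 5.71, 2.85 and 1.77 at 25 mM, a log2 fold change of 1.58 ± 0.42 (limma adjusted p = 0.0115). The 3 libraries at 25 mM spread widely, and without replicate 1 of them the difference was 1.19 and no longer passed (limma adjusted p = 0.0607). H3K27Ac was 1.91 and 3.26 at 5 mM and 6.61 and 4.14 at 25 mM (log2 fold change 0.93 ± 0.52; limma adjusted p = 0.152), which voom called (1.02; voom adjusted p = 0.0369). The Dll1 flanks were among the weakest of these peaks. The stronger of them by the mean over all 10 libraries lay 4.82 kb upstream. It had 2, 4 and 0 H3K18La reads at 5 mM and 2, 8 and 2 at 25 mM, and the groups overlapped. In H3K18La at 5 mM the other, 18.5 kb downstream, had the higher mean, 0.863 against 0.589 RPKM.

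Hes5, a repressor switched on by Notch, went from almost no H3K18La to a low level at the promoter peak over its start (chr4:154960544-154961901). It had 0, 4 and 0 reads at 5 mM and 10, 6 and 6 at 25 mM, which is 0, 0.568 and 0 RPKM against 3.75, 1.09 and 1.49. A count of 0 allows up to 3 reads, or 1.05 and 1.63 RPKM in those 2 libraries, by counting error alone. The log2 fold change was 1.88 ± 0.47 (limma adjusted p = 0.0075). Its size rested on the pseudocount, with 3.361 at 0.1 and 1.325 at 1, and the call held at both. H3K27Ac at the same peak was deeper, with 11 and 26 reads at 5 mM and 111 and 71 at 25 mM, and rose from 1.87 and 3.08 to 11.4 and 7.04 RPKM (log2 fold change 1.70 ± 0.57; limma adjusted p = 0.034). Hes5 also rose in H3K27Ac over its 2 upstream peaks, by 1.28 ± 0.31 (limma adjusted p = 0.0255). The stronger of these by the mean over all 10 libraries lay 14.0 kb upstream (chr4:154945189-154946922). H3K27Ac there was 1.33 and 1.86 RPKM at 5 mM and 6.57 and 4.58 at 25 mM. The other, 7.51 kb upstream, had the higher mean in H3K27Ac at 5 mM, 1.702 against 1.595 RPKM, and in H3K18La at both levels.

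Hes1, the other repressor, was called over its non-promoter peaks only, and in H3K18La only. Its promoter peak held between 1 and 5 H3K18La reads in all 6 libraries, with 1.66, 1.69 and 1.29 RPKM at 5 mM and 2.67, 1.29 and 2.36 at 25 mM, and the groups overlapped (log2 fold change 0.31 ± 0.43; limma adjusted p = 0.574). H3K27Ac there was 1.21 and 1.69 RPKM at 5 mM and 4.14 and 1.18 at 25 mM, with a fold change of 0.53 ± 0.53 that turned to -0.21 without 25 mM replicate 1. Summed over the peak in its last exon (chr16:30066390-30067217) and one 4.41 kb downstream, H3K18La rose from 1.30, 0.885 and 0.675 to 2.80, 2.25 and 1.55 RPKM (log2 fold change 0.89 ± 0.24; limma adjusted p = 0.0186). This call was lost without H3K18La 5 mM replicate 3, 25 mM replicate 1 or 25 mM replicate 2, with adjusted p between 0.0567 and 0.064, and with voom (adjusted p = 0.0536). The exon peak on its own had 3, 4 and 0 against 4, 8 and 3 reads and did not pass.

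Of the eye-field factors, Rax had the most calls. Its promoter peak (chr18:65937927-65940417) went from 3.04, 2.01 and 3.25 to 11.6, 9.18 and 7.31 RPKM of H3K18La (log2 fold change 1.59 ± 0.33; limma adjusted p = 0.0028). H3K27Ac there went from 7.52 and 13.1 to 48.8 and 32.2 RPKM, from 874 and 595 reads at 25 mM (log2 fold change 1.94 ± 0.40; limma adjusted p = 0.0191). No other promoter sum of the 9 genes exceeded 11.4 RPKM in any library of H3K27Ac. The peak in its 3′ untranslated region (chr18:65934956-65935526) was the strongest of all 60 in H3K27Ac, at 63.3 and 41.5 RPKM at 25 mM. H3K18La over that peak went from 4.98, 3.38 and 2.58 to 12.5, 11.2 and 13.0 RPKM (log2 fold change 1.66 ± 0.32; limma adjusted p = 0.0034). The largest H3K18La increase of the 60 peaks was 1.86 kb upstream of Rax (chr18:65940945-65941354), from 0, 5 and 2 reads to 10, 17 and 11 (log2 fold change 2.61 ± 0.60; limma adjusted p = 0.008). Its size ran from 1.68, without H3K18La 5 mM replicate 1, to 3.20, and other peaks of Rax and Notch1 also reached 3.13 or more in a leave-out. The largest in H3K27Ac was 7.14 kb upstream, from 2.38 and 4.31 to 18.8 and 13.6 RPKM (log2 fold change 2.14 ± 0.40; limma adjusted p = 0.0553). Of the 6 Rax peaks, 5 passed in H3K18La (25.4% of all peaks), and in all 6 the groups did not overlap in either mark (36.6% and 53.0% of all peaks). Those 5 calls held in each of the 10 fits that left out 1 library.

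With limma, the promoters of Six3 and Six6 were not called in either mark. The Six3 promoter peak (chr17:85620691-85621395) had 0, 4 and 2 H3K18La reads at 5 mM and 3, 4 and 3 at 25 mM. Its fold change was 0.75 ± 0.52 in H3K18La and 0.68 ± 0.64 in H3K27Ac (limma adjusted p = 0.263 and 0.397), and leaving out 1 library moved these values between 0.073 (without H3K18La 5 mM replicate 1) and 1.26 (without replicate 3), and between 0.24 (without H3K27Ac 25 mM replicate 1) and 1.12 (without replicate 2). One of its 11 peaks passed in H3K18La, the 3′ untranslated region 2.42 kb downstream of the start, from 0, 6 and 1 to 5, 8 and 6 reads (log2 fold change 1.51 ± 0.50; limma adjusted p = 0.0428). That call held in only 2 of 10 leave-outs (adjusted p of 0.0261 to 0.124). The H3K27Ac of the same peak was 4.94 RPKM at 5 mM and 5.02 at 25 mM, a difference of -0.08 ± 0.61. The strongest Six3 peak in H3K18La, 10.3 kb downstream (chr17:85631129-85631732), was as high at 5 mM, 3.84 ± 0.914 RPKM, as at 25 mM, 3.87 ± 1.26 (SD, n = 3).

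The Six6 promoter peak (chr12:72939267-72940758) gave 1.59, 0.647 and 0.493 against 1.02, 2.14 and 2.49 RPKM of H3K18La, with overlap (log2 fold change 0.78 ± 0.41; limma adjusted p = 0.143). Its H3K27Ac did not overlap between groups, at 2.63 and 3.13 against 5.78 and 6.59 RPKM, and the limma test did not pass (log2 fold change 0.98 ± 0.50; limma adjusted p = 0.121), while voom on the recovered reads called it (1.07; voom adjusted p = 0.0421). Over exon 2 of Six6 (chr12:72940838-72941718), H3K18La rose from 3, 1 and 1 reads to 6, 7 and 5 in the test over genes (log2 fold change 1.18 ± 0.38; limma adjusted p = 0.0387), while the test over peaks gave an adjusted p of 0.0626 with limma. Leaving out any single library but H3K18La 5 mM replicate 1 removed the first call, with limma adjusted p of up to 0.124.

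Atoh7, the factor needed for ganglion cells, had a single peak, over its start (chr10:63099606-63100808). It was low in both marks, at 0.788, 0.962 and 1.22 against 1.27, 1.84 and 1.68 RPKM of H3K18La, and at 1.54 and 2.68 against 4.05 and 3.70 of H3K27Ac. The groups did not overlap in either mark, and neither difference passed (0.49 ± 0.37 and 0.78 ± 0.45; limma adjusted p = 0.30 and 0.17). Both lay under the median of all genes.

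Ccnd1 had no call in either mark with limma on all libraries. Of its peaks, 3 passed in H3K18La in 1 leave-out each, with adjusted p of 0.0446, 0.0244 and 0.0151. Its 14 non-promoter peaks together went from 1.08, 1.10 and 1.17 to 2.14, 1.65 and 1.42 RPKM of H3K18La (log2 fold change 0.46 ± 0.18; limma adjusted p = 0.0856) and from 1.16 and 1.32 to 1.99 and 1.83 of H3K27Ac (0.47 ± 0.23; limma adjusted p = 0.208). The strongest by the mean over all 10 libraries lay in an intron 3.91 kb downstream of the start (chr7:144935222-144935960). It had 1.91 ± 0.083 and 2.98 ± 1.15 RPKM of H3K18La (SD, n = 3). In H3K18La alone the highest means were 2.04 RPKM at 5 mM, 56.4 kb upstream, and 3.34 at 25 mM, 53.6 kb upstream. Of the 14 peaks, 5 had a negative fold change in H3K18La and 2 in H3K27Ac. At the CpG-rich peak 2.31 kb upstream of the start the H3K18La difference was 1.53 ± 0.53, with 1, 9 and 0 against 7, 14 and 8 reads (limma adjusted p = 0.0512).

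The H3K27Ac calls depended on single libraries, and leaving out 1 of the 2 in a group leaves 1. Without H3K27Ac 5 mM replicate 1 or 25 mM replicate 1 the promoter and non-promoter calls were lost, as they were over the whole table. The fold changes of the promoter sums without 5 mM replicate 1 stayed positive, at 1.05 for Notch1, 1.40 for Hes5 and 1.56 for Rax. The Hes5 promoter call was also lost without H3K27Ac 5 mM replicate 2 or 25 mM replicate 2. The non-promoter calls were lost without 25 mM replicate 2, again as over the whole table. The H3K18La promoter calls of Notch1, Rax and Hes5 held in all 10 leave-outs of the test over genes. In the test over peaks the Hes5 promoter peak was lost without H3K18La 25 mM replicate 1 (limma adjusted p = 0.0627), as was that of Dll1 (limma adjusted p = 0.0706).

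Whether the response to glucose differed between the marks was tested by the interaction. None of the 60 peaks (0% of all peaks), none of the 8 promoter sums (0% of all genes) and none of the 8 non-promoter sums (0%) passed. None of these genes or of their 60 peaks had an unadjusted p under 0.05 with limma, against 5182 of all peaks, 793 promoter sums and 1257 non-promoter sums. voom made no call either. Its unadjusted p was under 0.05 at 4 of the 60 peaks and 7149 of all peaks, at 0 of the 8 promoter sums and 751 of all, and at 0 of the 8 non-promoter sums and 1784 of all. The largest interaction over promoters was that of Dll1, 0.64 ± 0.67 (limma adjusted p = 0.94), and the largest over other peaks that of Hes5, -0.73 ± 0.40 (limma adjusted p = 0.798).

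Of 34 other genes of the Notch pathway, 33 had a promoter peak. Of these, 14 rose in H3K18La and 12 in H3K27Ac, where 33.9% and 36.4% of all genes were called. The 14 count Psenen, whose H3K18La call rests on 0 reads at 5 mM. None of the 33 genes fell. Their median log2 fold changes were 0.98 and 1.27, beside 0.87 and 1.15 over all genes. With Psenen, below, at its counting bound the first was 0.97. Notch3, a receptor of mural cells, rose in H3K18La at its promoter, from 1.07 ± 0.553 to 4.40 ± 1.57 RPKM (log2 fold change 1.65 ± 0.41; limma adjusted p = 0.0075). Psenen, a subunit of the γ-secretase that cuts Notch, was at 0 reads in all 3 libraries at 5 mM and at 3, 4 and 0 at 25 mM, so that neither a fold nor a rank is given. The 2 lowest fold changes were those of Adam17, a protease that sheds receptors, at 2.34 ± 0.289 and 1.23 ± 1.09 RPKM, and the ligand Jag2, at 0.978 ± 0.439 and 0.626 ± 0.116, and neither passed. In H3K27Ac Adam17 was 8.80 ± 0.672 RPKM at 5 mM and 24.5 ± 5.31 at 25 mM (limma adjusted p = 0.0726).

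Among 24 other progenitor regulators, 21 had a promoter peak, of which 7 rose in H3K18La and 6 in H3K27Ac, where 33.9% and 36.4% of all genes were called. The largest increase was at Neurod1, a neurogenic factor that photoreceptors keep, from 1.67 ± 0.535 to 13.9 ± 7.59 RPKM of H3K18La (log2 fold change 2.64 ± 0.40; limma adjusted p = 6.3e-04), and the next at Neurod4, its relative, from 1.67 ± 0.591 to 6.95 ± 2.26 (1.76 ± 0.36; limma adjusted p = 0.0026). Nr2e1, among the smallest changes, had 0.361 ± 0.317 and 0.951 ± 1.39 RPKM and did not pass. The median percentile of this list was 40.5 at 5 mM and 23.4 at 25 mM in H3K18La.

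Of 23 cell-cycle genes 19 had a promoter peak, of which 5 rose in H3K18La and 6 in H3K27Ac, beside the same shares of all genes. Cdkn1b, the inhibitor p27 that holds cells out of division, had the largest H3K18La increase, from 0.736 ± 0.732 to 3.70 ± 1.41 RPKM (log2 fold change 1.91 ± 0.47; limma adjusted p = 0.0072), followed by the replication helicase subunit Mcm2 (1.79 ± 0.50; limma adjusted p = 0.014). The proliferation marker Mki67, at 0.743 ± 0.164 and 0.688 ± 0.626 RPKM, and Cdk1, the mitotic kinase, at 1.92 ± 0.699 and 2.51 ± 0.921, did not pass.

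The tissue was checked against marker lists. Rod markers had promoter peaks in 11 of 12 genes, with median percentiles of 83.5 and 96.4 in H3K18La and 86.4 and 98.4 in H3K27Ac, and all 11 rose in both marks, where 33.9% and 36.4% of all genes were called. Müller glia markers, 9 of 10 with a promoter peak, stood at 59.5 and 58.8 in H3K18La and 46.4 and 39.4 in H3K27Ac, with 3 and 2 of the 9 rising. Promoter peaks were present for 4 of 9 ganglion cell markers, 1 of 7 microglia markers, 1 of 6 pigment epithelium markers and 2 of 16 genes of other organs. The summed promoter RPKM of the Müller glia markers in H3K18La ran from 11.3 to 11.9 at 5 mM and from 24.9 to 30.7 at 25 mM, and that of the rod markers from 16.5 to 21.6 and from 76.6 to 174. Whether cell makeup had a part in the differences at the progenitor and Notch genes was not tested.

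**Figure D5:**
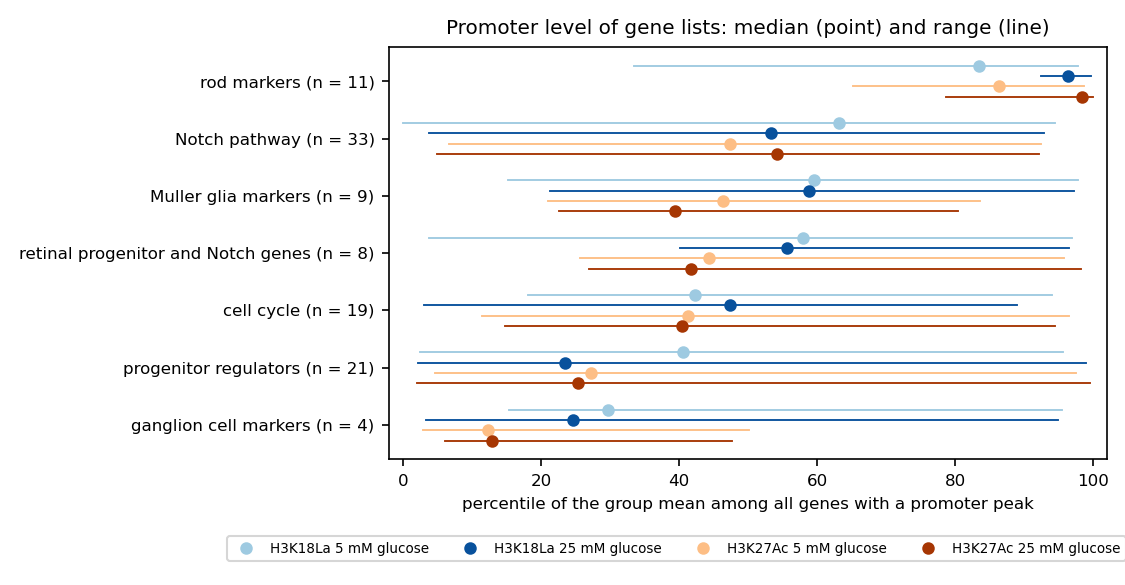
Percentile of each group's mean promoter RPKM among all genes with a promoter peak, as the median (point) and range (line) of each gene list, by mark and glucose level, with n the genes that have a promoter peak. The rod markers lie at a median of 83.5 or above in all 4 groups, and the retinal progenitor and Notch genes between 41.7 and 58.0.

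Each gene's profile over the 10 libraries, taken over all its peaks, was set against 17359 genes with a mean of at least 1 RPKM. The gene most like Rax was Ctnna1 (Pearson r = 0.998). The others were Yeats4 for Hes5 and Zfp790 for Six6 (r = 0.996 each), Sh3bp5 for Six3 (0.994), Gm29561 for Atoh7 (0.991), Cilp for Ccnd1 (0.986), Ptpn1 for Dll1 (0.983) and Foxn1 for Hes1 (0.981). The points share antibody and glucose group, and the median r of all genes with the 9 genes ran from 0.647 for Ccnd1 to 0.854 for Rax.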

How the data were processed

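The authors aligned CUT&Tag reads to GRCm38, called peaks with MACS, annotated them with ChIPseeker 1.34.1 and deposited RPKM values for 1 peak set in all 10 libraries. A second deposited table, the authors' own differential comparison, was not used. The extract labels name an H3K9me3 antibody and pA-MNase where the study's methods give the H3K27Ac antibody and pA-Tn5; the file's mark names were followed. Whole reads were recovered from the RPKM steps (100% of values within 0.01 of a whole number), which gave each library's total and depth. Tests used limma 3.58.1 in R 4.3.3 on log2(RPKM + 0.5), with 4 group means and an intensity trend, per peak and on reads summed per gene over promoter or other peaks, and were tested on simulated data. Named were all promoter peaks of the 9 genes, each gene's highest other peak, the largest called changes, and the 2 largest and smallest H3K18La changes of each list at a mean of at least 1 RPKM. Genes, lists and the pooled fit were chosen with earlier results of these data known, including that H3K27Ac fitted alone called no peak. Alternatives covered pseudocount, filter, scaling, spread, voom, pairing, threshold and each library. Same-numbered libraries were not paired by any source. Intervals and floors cover counting error only. Some named results are not reported here.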

Additional observations from a re-analysis of the deposited data

How the results depend on the processing

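Counts below are of the 9 genes' own peaks or sums called, in the order H3K18La then H3K27Ac. Counts over all peaks or all genes follow in brackets. Centred on the median of all peaks, 6 and 0 peaks were called (9077 and 0 of 108253). Of the promoter sums 1 and 0 were called (1016 and 0 of 14562), and of the non-promoter sums 2 and 0 (2988 and 0 of 19849). Scaled to reads in peaks, all 6 counts were 0 (5 and 0 peaks, 0 and 0 promoter sums, 334 and 0 non-promoter sums). The median log2 fold change of all peaks went from 0.76 and 0.58 to 0.13 and 0.14 by the first and to -0.05 and -0.28 by the second. Centred on the weakest decile, the promoter sums gave 1 call in H3K27Ac (1631), and the non-promoter sums 2 and 0 (5337 and 0). A pseudocount of 0.1 left 0 H3K27Ac promoter sums (0), and one of 1 gave 5 H3K27Ac peaks (9570). Peaks with a mean of at least 1 RPKM gave 4 in H3K27Ac (7349 of 72467), as did robust moderation (4473). voom gave 19 H3K27Ac peaks (23148) and 5 H3K27Ac promoter sums (8388). With each mark fitted alone, 8 H3K18La peaks (18390) and 0 H3K27Ac non-promoter sums (0) passed. At a threshold of 0.01, 9 H3K18La peaks (13258), 0 H3K27Ac promoter sums (0), and 2 and 0 non-promoter sums (4426 and 0) passed.

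Same-numbered libraries shared little deviation over single peaks (correlations of same-numbered deviations from -0.004 to 0.0238). With so few reads per peak, counting noise could hide a pairing, and this cannot exclude one. With the replicate number as a block, 17 H3K18La peaks (24115 of all) passed. So did 4 and 2 promoter sums (4830 and 5016 of all) and 4 and 0 non-promoter sums (6224 and 0). The closest pair of libraries, 5 mM H3K18La replicates 2 and 3, differed by more than counting noise. Taken as 1 sample, a choice made after seeing the data, they gave 6 H3K27Ac peaks (8394 of all) and 2 H3K18La non-promoter sums (6361 of all).

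Leaving out each H3K18La library in turn gave 12 to 19 peaks in H3K18La (19241 to 25941 of all) and 0 to 6 in H3K27Ac (0 to 7266). Promoter sums called were 3 to 4 (2918 to 4700) and 3 (4494 to 6685). Non-promoter sums called were 2 to 4 (5758 to 6569) and 3 (2264 to 3515). The interaction had 0 calls in each of these fits. Leaving out an H3K27Ac library leaves 1 in its group, so that no counts are given, and H3K27Ac calls were lost there. The median percentile of the promoters in H3K27Ac at 25 mM was 41.7 by sums and 40.6 by the highest peak.

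Of the genes' own fold changes under all alternatives, 586 kept direction and side of the threshold, 85 lost and 6 gained the call, and 27 changed sign. With median centring H3K18La was -0.14 for Atoh7 and -0.32 for Hes1 over promoters, and -0.17 for Ccnd1, -0.44 for Dll1, -0.083 for Hes5 and -0.14 for Six3 over other peaks, where H3K27Ac was -0.14 for Dll1. With reads in peaks, H3K18La over promoters was -0.60 for Atoh7, -0.89 for Hes1, -0.066 for Six3 and -0.24 for Six6, and H3K27Ac was -0.28 for Atoh7, -0.18 for Dll1, -0.44 for Hes1, -0.44 for Six3 and -0.15 for Six6. Over other peaks, H3K18La was then -0.68 for Ccnd1, -0.82 for Dll1, -0.19 for Hes1, -0.55 for Hes5 and -0.68 for Six3, and H3K27Ac was -0.46 for Ccnd1, -0.60 for Dll1, -0.46 for Hes1, -0.50 for Six3 and -0.13 for Six6. Over the leave-outs, Hes1 ran from -0.21 (without H3K27Ac 25 mM replicate 1) to 1.26 over its promoter in H3K27Ac. The cause of these changes was not tested. Depth limits the promoters of Hes1, Hes5, Six3, Six6 and Atoh7 in H3K18La, where single libraries held 0 to 13 reads.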
